A study of Oryza sativa with 3 samples.

Results

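The hybrid rice LYP9 was set beside the mean of its parents at the 1410 regions of chromosomes 1 to 12 where 93-11, LYP9 and PA64s all had a peak of captured 5-hydroxymethylcytosine (5hmC). These regions were obtained by merging peaks that overlapped by at least 1 bp, and they are 1410 of the 5584 merged regions on these chromosomes and of 5740 when organelle sequences are counted. The study captured 5hmC chemically from genomic DNA of young panicles 3 to 4 mm long, from field-grown plants sampled together, with 1 library for each line. 93-11 is an indica line used as pollen parent, PA64s, which is male sterile, serves as the seed parent, and LYP9 is the hybrid of the pair. The labels name no treatment or transgene, and they do not say how many plants went into a library. The regions were chosen by the presence of a called peak in every library, and the classes described below were chosen by the pileups themselves, so their sizes and values are a description. Because each line had 1 library, no difference between lines has a replicate check and no test between lines was made.

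5hmC arises when 5-methylcytosine is oxidised. In animals the TET enzymes carry out this step, and plants have no TET enzyme of that family, so its level and origin in plant DNA are debated. A first-generation hybrid receives 1 chromosome set from each parent. If each set kept the signal it had in its parent, and libraries were otherwise alike, the hybrid would lie at the mean of the parents, the additive or mid-parent value. A mark in a hybrid can also be near the level of 1 parent, above both or below both.

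The value used at each region was the summit pileup, the number of extended tags that cover the highest base of a peak. Where a library had more than 1 peak in a region, the highest was taken. It was divided by the total tags of the library and multiplied by 1000000, which gives the scaled pileup, and the mid-parent value is the mean of the scaled pileups of 93-11 and PA64s. The library of 93-11 had 10007148 tags in all, that of LYP9 10078296 and that of PA64s 11948210, and the headers give no totals for the chromosomes alone. No control library was used in the peak calls, so enrichment for 5hmC at a single region is not established by these files. The PA64s library stood apart, with a median ratio of 93-11 to PA64s over the regions of 1.39. A second scale was therefore carried along, called the levelled scale, in which each library was divided by its median ratio to the geometric mean of the 3 libraries, so that the median region is close to level between them. This scale removes any difference between libraries that is common to all regions, whatever its source. Regions are named by the coordinates of the files, counted from 1. Their genome build was not stated in any source used, so no gene names are attached.

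At the shared regions LYP9 lay slightly above the mid-parent value, close to 93-11 and well above PA64s. Unscaled pileups ran from 12 to 165 tags in 93-11 with a median of 39, from 11 to 162 in LYP9 with a median of 37, and from 12 to 160 in PA64s with a median of 32. The median scaled pileup was 3.90 for 93-11, 3.67 for LYP9, 2.68 for PA64s and 3.37 for the mid-parent value. The median log2 ratio of LYP9 to the mid-parent value was 0.14, a 1.10-fold difference, with a 95% interval over regions of 0.12 to 0.15. LYP9 was above the mid-parent value at 1025 regions (72.7%). Its median log2 ratio was -0.08 to 93-11 (interval -0.09 to -0.07) and 0.41 to PA64s (0.38 to 0.43), and that of 93-11 to PA64s was 0.47 (0.45 to 0.49). These intervals give the precision of the medians over regions within 3 libraries, and neither the spread of single regions nor the error of a line. They take regions as independent, although neighbouring regions resembled each other in some ratios, including that to the mid-parent value, as given below. Tags were extended to 83 bp in 93-11 and to 81 bp in LYP9 and PA64s, and the scaled pileups are not corrected for this. The median log2 ratio of LYP9 to 93-11 in the peak caller's background was -0.036. The part of the extension in the ratios to 93-11 was not tested. On the levelled scale, which shifts the median log2 ratio to the mid-parent value by more than 0.1, it was -0.010 (-0.023 to 0.0039). That scale sets this median close to 0 by construction, so it carries no direction of its own, and the excess by total tags rests on the totals being a fair measure of depth.

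**Figure D1:**
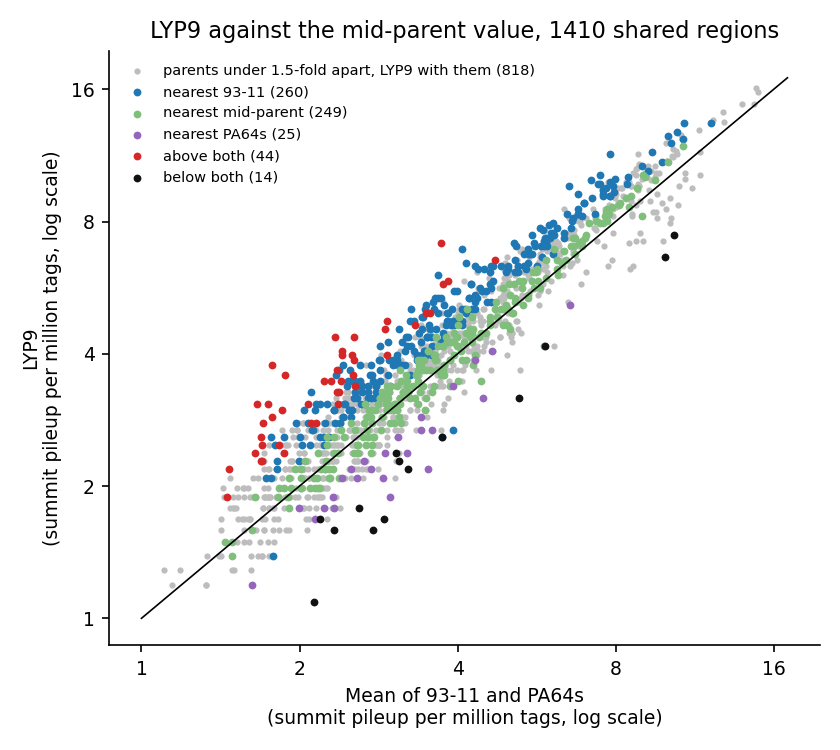
Scaled summit pileup in LYP9 (vertical, log scale) against the mean of 93-11 and PA64s (horizontal, log scale) at 1410 regions, 1 point each, with the line of equality. Colours give the class of LYP9, with the number of regions in brackets; most points lie near the line, with 44 regions above both parents and 14 below both.

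A margin of 25% was used to call values close, the higher being at most 25% above the lower. LYP9 was that close to the mid-parent value at 1090 regions (77.3%), to 93-11 at 1142 (81.0%) and to PA64s at 514 (36.5%). It was at least 1.5-fold above the mid-parent value at 30 regions (2.13% of all tested) and at least 1.5-fold below it at 6 (0.426%), and at 9 (0.638%) and 27 (1.91%) on the levelled scale. The levelled values were close at 1133 regions (80.4%) for the mid-parent value, 1184 (84.0%) for 93-11 and 906 (64.3%) for PA64s. LYP9 was thus close to 93-11 at slightly more regions than to the mean of the parents on both scales. Across the regions the log2 values of LYP9 had a Pearson correlation of 0.95 with 93-11, 0.87 with PA64s and 0.95 with the mid-parent value (n = 1410 regions, which share libraries and peak strength). The mid-parent value contains 93-11 and averages 2 libraries, which reduces its counting error.

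The spread of the ratios, which does not depend on the scaling, separated the pairs of libraries. The standard deviation of the log2 ratio over regions was 0.24 for LYP9 to 93-11, 0.39 for LYP9 to PA64s and 0.41 for 93-11 to PA64s. Counting error of the pileups alone, taken as Poisson, would give 0.35, 0.36 and 0.35. LYP9 and 93-11 thus differed over the shared regions by less than this estimate of the sampling noise, whereas each differed from PA64s by slightly more. The contrast was clearest in the strongest 353 regions, with mean pileups of 54.0 to 161 tags. There the standard deviation was 0.16 for LYP9 to 93-11, 0.38 for LYP9 to PA64s and 0.41 for 93-11 to PA64s, where Poisson error would give 0.23, 0.24 and 0.24. Were each start position on a strand to contribute 1 tag, as non-redundant alignments may do, a pileup cannot pass 166 tags in 93-11 or 162 in the other libraries, and counting error shrinks as it nears that number. Allowing for this, the estimates in the strongest regions were 0.17, 0.18 and 0.18. In these regions LYP9 and 93-11 therefore differed by about as much as counting error allows, and PA64s differed from both by more than 2 times that. All regions had to pass the peak threshold in every library, which also narrows the spread among weak regions.

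**Figure D2:**
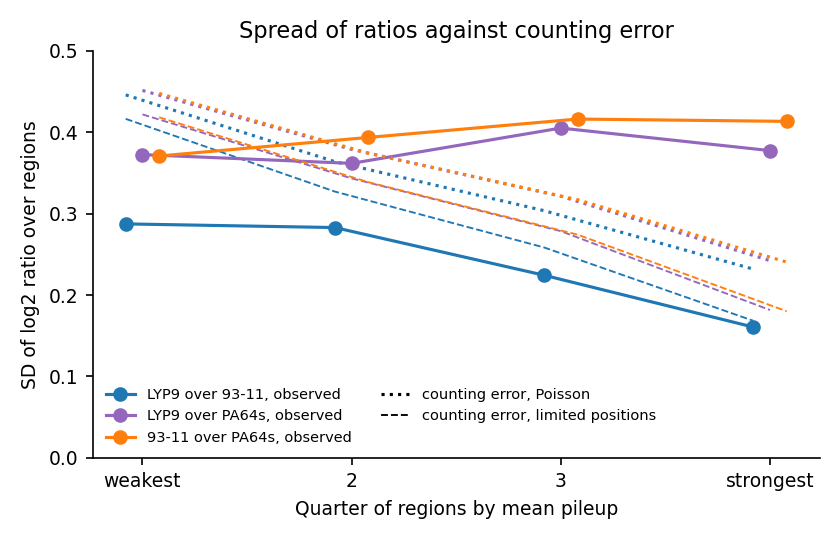
Standard deviation over regions of the log2 ratio between pairs of libraries (points and solid lines), by group of regions from the weakest to the strongest mean pileup, with the spread that counting error would give as Poisson (dotted) or with a limited number of tag positions (dashed). In the strongest group the pair LYP9 and 93-11 is at 0.16, beside 0.38 and 0.41 for the pairs with PA64s.

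LYP9 and 93-11 were nevertheless separate lists. Their pileups were equal at 76 of the 1410 regions, against 71 for LYP9 and PA64s and 43 for the parents. Their peaks had the same summit base at 174 regions, against 195 for LYP9 and PA64s and 158 for the parents. Summits are a readout that the choice of regions did not use beyond the overlap. At the 1352 regions with exactly 1 peak in each library, the median distance between summits was 4 bp for LYP9 and 93-11, 4 bp for LYP9 and PA64s and 5 bp for the parents. Summits within 10 bp of each other made up 72.3%, 67.6% and 67.3% of these regions. Median peak lengths there were 127 bp for 93-11, 124 bp for LYP9 and 112 bp for PA64s, in the same order as the scaled pileups.

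**Figure D3:**
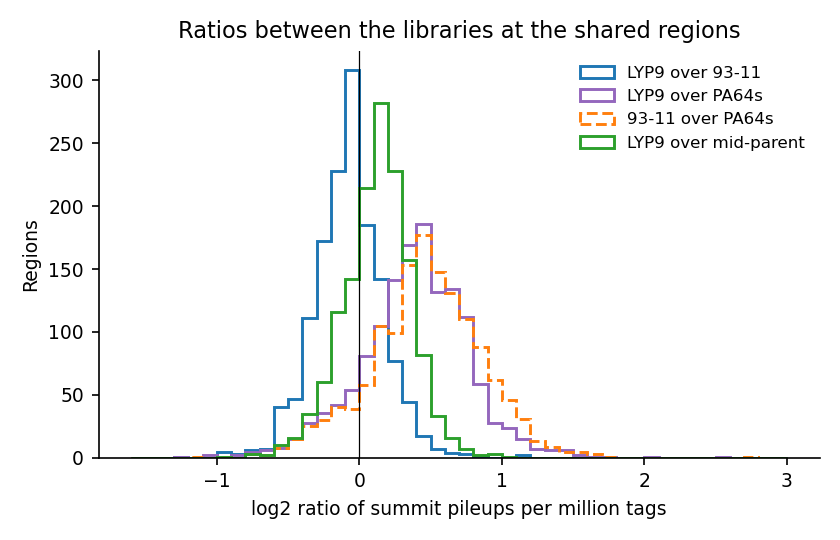
Numbers of regions (vertical) by log2 ratio of scaled pileups (horizontal, in steps of 0.1) for LYP9 over 93-11, over PA64s and over the mid-parent value, and for 93-11 over PA64s, with a line at 0. LYP9 over 93-11 is narrow with a median of -0.08, and both ratios to PA64s are wide with medians of 0.41 and 0.47.

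Each region was then placed in 1 of 6 classes. LYP9 was called above both parents where it passed the higher parent by more than 25% and below both where it was under 80% of the lower parent. Otherwise, where the parents were at least 1.5-fold apart, it was assigned to the nearest of 93-11, PA64s and the mid-parent value. Regions with parents less than 1.5-fold apart and LYP9 with them made up the majority, 818 of 1410 (58.0%, exact binomial interval 55.4 to 60.6). LYP9 was nearest 93-11 at 260 regions (18.4% of all tested), nearest the mid-parent value at 249 (17.7%) and nearest PA64s at 25 (1.77%). It was above both parents at 44 regions (3.12%) and below both at 14 (0.993%). These shares are the background for the subsets that follow. With no margin around the parents LYP9 would be above both at 437 regions and below both at 154.

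On the levelled scale fewer regions had parents 1.5-fold apart, 208 instead of 541, and the balance outside the parents differed. LYP9 was then nearest 93-11 at 121 regions (8.58%), nearest the mid-parent value at 69 (4.89%) and nearest PA64s at 12 (0.851%). It was above both parents at 30 (2.13%) and below both at 41 (2.91%). Regions above both were therefore 75.9% of those outside the parents by total tags and 42.3% on the levelled scale. Levelling moves all regions of a library alike and largely fixes this balance, so the counts are given on both scales and no direction is read from them. Only 18 regions were above both on both scales and 7 below both. Of the 3 nearest classes, that of PA64s was the smallest on both scales, while those of 93-11 and the mid-parent value were of like size by total tags.

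The 95% interval from the counting error of the 3 pileups excluded equality of LYP9 and the mid-parent value at 66 regions by total tags. LYP9 was higher at 55 of them (3.9% of all tested) and lower at 11 (0.78%). Levelled values gave 51 such regions, 13 of them higher (0.922%) and 38 lower (2.7%). These intervals cover counting error only. Intervals of 95% exclude equality at a share of regions of this order by counting error alone. The counts are therefore not read as departures from the mid-parent value.

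The position of LYP9 between its parents was expressed as 0 at PA64s, 0.5 at the mid-parent value and 1 at 93-11. By total tags 93-11 was at least 1.5-fold above PA64s at 532 regions, with median scaled pileups of 4.70 for 93-11, 4.17 for LYP9 and 2.51 for PA64s. The median position there was 0.75 (interval over regions 0.72 to 0.78), and LYP9 lay on the 93-11 side of the mean at 435 of them (81.8%). At the 9 regions where PA64s was at least 1.5-fold higher the median position was 0.71 (0.57 to 0.91), and LYP9 was on the 93-11 side at all 9. The levelled position was 0.76 (0.61 to 0.89) at 85 regions with 93-11 higher and 0.88 (0.80 to 0.94) at 123 regions with PA64s higher. The median was therefore on the 93-11 side whichever parent was higher. The parents' pileups carry counting error and also choose these regions, and the effect of this on the position was not tested.

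**Figure D4:**
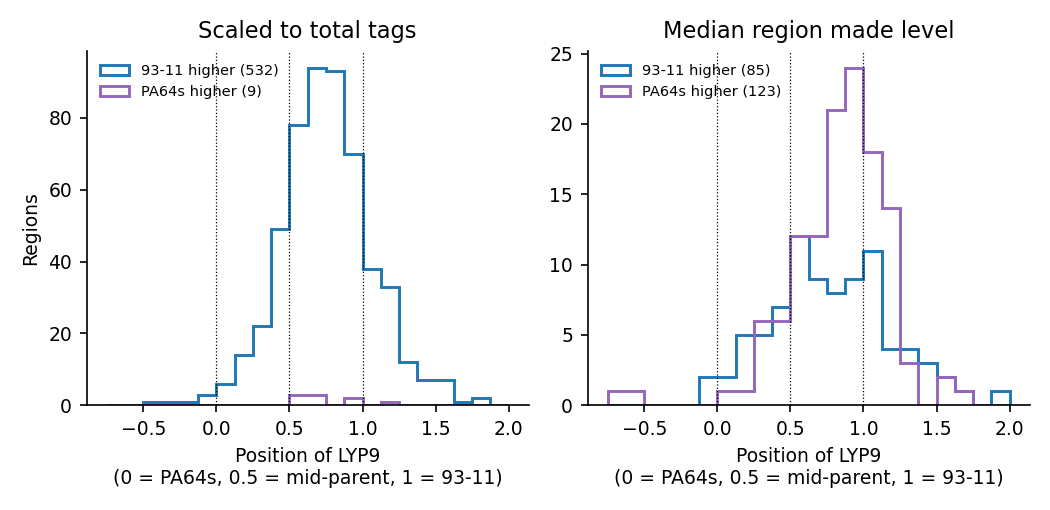
Numbers of regions (vertical) by position of LYP9 between its parents (horizontal; dotted lines at 0 for PA64s, 0.5 for the mid-parent value and 1 for 93-11), for parents at least 1.5-fold apart, by total tags (left) and on the levelled scale (right). Values beyond the axis are drawn in its outermost bins. The median lies between 0.71 and 0.88 in each of the 4 sets.

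A least-squares fit of the log2 value of LYP9 on those of both parents gave a weight of 0.76 for 93-11 and 0.22 for PA64s, with a residual standard deviation of 0.23. A change of scale for a whole library does not alter these weights. Leaving out each chromosome in turn kept the weight of 93-11 between 0.74 and 0.77. The fit was added after the values were seen, it describes regions and not replicates, and the weights are not corrected for counting error in the parents.

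The classes differed in strength. By mean pileup, the weakest 353 regions held 19 of the regions above both parents, the next 352 held 16, the next 352 held 8 and the strongest 353 held 1. Regions above both thus made up 5.38% of the weakest and 0.283% of the strongest, against 3.12% of all. The margin of 25% was the same for all groups, whereas counting error is larger in weak regions. Poisson error alone would give a standard deviation for LYP9 to 93-11 of 0.45 in the weakest and 0.23 in the strongest regions. The part of counting error in these shares was not tested. LYP9 was nearest 93-11 at 8.22% of the weakest regions, 16.8% and 24.7% of the middle groups and 24.1% of the strongest, against 18.4% of all. LYP9 was nearest PA64s at 2.55% of the weakest and 0.283% of the strongest regions, against 1.77% of all. Where 93-11 was the higher parent, the median position was 0.63 in the weakest and 0.82 in the strongest regions. After levelling there was no steady rise. From the weakest to the strongest group the medians were 0.92 over 9 regions, 0.58 over 27, 0.84 over 35 and 0.84 over 14. With levelling the share nearest 93-11 was 7.37% in the weakest regions, 5.40% and 9.66% in the middle groups and 11.9% in the strongest.

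Except for the regions of highest mean level and those at the limits of a class, single regions were named from the 913 with a mean pileup of at least 30 tags and no pileup above 90% of the limit of 2 times the extension length. Of these, the region furthest above both parents lay on chromosome 1 from 13682618 to 13682751, with 25 tags in 93-11, 44 in LYP9 and 26 in PA64s. LYP9 there was 1.75 times the higher parent and 1.87 times the mid-parent value (counting interval 1.247 to 2.80), and on the levelled scale 1.66 times (1.11 to 2.49). Further along chromosome 1 the region from 20069568 to 20069751 had 24, 41 and 29 tags, in the order 93-11, LYP9, PA64s, and a ratio to the mid-parent value of 1.69 (1.12 to 2.54). A region 51.8 kb before it, from 20017525 to 20017748, had 24, 40 and 29 tags and a ratio of 1.65 (1.09 to 2.48). The other regions named for this were on chromosome 10 from 5167720 to 5167838 with 29, 46 and 35 tags, on chromosome 12 from 12284970 to 12285075 with 26, 40 and 29, and on chromosome 5 from 13100101 to 13100223 with 40, 58 and 42. Of the 6, the regions from 13682618 and 20069568 remained above both on the levelled scale, and only the interval of the former then excluded equality.

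Among the regions open to naming and below both parents, the one on chromosome 2 from 13638654 to 13638751 had the lowest ratio to the lower parent, 0.705, with 31, 22 and 40 tags. Its ratio to the mid-parent value was 0.677 (0.420 to 1.09). The region on chromosome 12 from 11695034 to 11695159 had 63, 32 and 50 tags and a ratio of 0.606 (0.409 to 0.897). Both stayed below both parents on the levelled scale. A region of chromosome 10 from 5542586 to 5542812 had 30, 23 and 38 tags, and its parents counted as alike when levelled. The remaining 3 had PA64s as the higher parent and became nearest 93-11 when levelled. They lay on chromosome 12 from 20470560 to 20470708 with 54, 42 and 76 tags and from 20517174 to 20517323 with 96, 75 and 132, and on chromosome 10 from 10741155 to 10741258 with 33, 26 and 50. At the limits of these classes, the region just above both, on chromosome 4 from 29651740 to 29651873, had 14, 19 and 18 tags and a ratio of 1.251 to the higher parent, and the one just short of it had 1.248. The last region below both had a ratio of 0.792 to the lower parent and the next one 0.803.

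The widest gap between parents among the named regions was one where LYP9 was nearest 93-11. On chromosome 1 from 16745801 to 16746134 the pileups were 136 tags in 93-11, 115 in LYP9 and 24 in PA64s, so that 93-11 was 6.77 times PA64s after scaling and LYP9 had a position of 0.81. Its ratio to the mid-parent value was 1.46 (1.15 to 1.86). On chromosome 6 from 1299418 to 1299551 they were 65, 54 and 23 tags with a position of 0.75, and on chromosome 7 from 28605449 to 28605679 they were 48, 44 and 19 with a position of 0.87. With PA64s higher, LYP9 was nearest 93-11 on chromosome 3 from 19562985 to 19563378, with 23, 26 and 62 tags, and on chromosome 9 from 22733354 to 22733454, with 30, 27 and 58. In the last case LYP9 was just under 93-11, within the margin.

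Among the named regions, that with the largest excess of PA64s, on chromosome 1 from 16911029 to 16911322, was in the class nearest the mid-parent value. It had 19 tags in 93-11, 42 in LYP9 and 117 in PA64s, and a position of 0.71. PA64s was 5.16 times 93-11 there, and LYP9 was 2.19 times 93-11. This region lies 165 kb beyond the one of chromosome 1 in which PA64s was low. Other regions of this class with PA64s higher were on chromosome 1 from 18682170 to 18682302, with 42, 52 and 77 tags, and on chromosome 12 from 8528991 to 8529211, with 72, 83 and 129. With 93-11 higher, the class held a region of chromosome 6 from 1307592 to 1307770 with 44, 32 and 18 tags, at a position of 0.58, 8.04 kb from the chromosome 6 region nearest 93-11 above. It also held chromosome 6 from 21743958 to 21744189, with 67, 35 and 26 tags and a position of 0.29, and chromosome 10 from 5122319 to 5122425, with 61, 51 and 27 and a position of 0.73.

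In the class nearest PA64s by total tags, all 25 regions had 93-11 as the higher parent, so LYP9 shared the lower value with PA64s. This is near the share over all classes, since 93-11 was higher at 532 of the 541 regions with parents 1.5-fold apart. On the levelled scale 93-11 was higher at 9 of the 12 regions of this class and PA64s at 3. The named regions with the widest gap between parents were on chromosome 6 from 10175379 to 10175560, with 52 tags in 93-11, 22 in LYP9 and 22 in PA64s, on chromosome 3 from 3296197 to 3296319, with 48, 27 and 24, and on chromosome 4 from 3737557 to 3737753, with 45, 24 and 23. The ratios of LYP9 to the mid-parent value were 0.620 (0.385 to 0.999), 0.787 (0.506 to 1.23) and 0.742 (0.466 to 1.18). These 3 were nearest PA64s on both scales, and they are the only regions of the class of which that held.

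The highest regions were close to equal in all libraries before scaling. After scaling PA64s was lower than both others by total tags and higher than both when levelled, so no order is read from them. On chromosome 3 from 28639272 to 28639451, 93-11 had 165 tags, LYP9 159 and PA64s 160, and on chromosome 2 from 28714901 to 28715049 the pileups were 162, 162 and 160. These values are at or near the largest that non-redundant tags allow, so likeness among them is limited by it. Their order after scaling then follows largely from the scaling factors. The region of chromosome 10 from 5143625 to 5143855, with 147, 143 and 131 tags, was the highest outside that range. Its scaled pileups were 14.7, 14.2 and 11.0, and LYP9 was 1.11 times the mid-parent value (0.904 to 1.35). The levelled values were 138, 140 and 143.

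Chromosomes were compared next, by total tags. The median log2 ratio of LYP9 to the mid-parent value lay between 0.08 on chromosome 2 and 0.19 on chromosome 10, and that to 93-11 was below 0 on all 12, from -0.11 to -0.05. The ratios to 93-11 by total tags are not corrected for the longer tag extension in 93-11. The levelled medians to 93-11 had both signs, from -0.037 on chromosome 2 to 0.025 on chromosome 3. Chromosome 10 had the largest share of regions nearest 93-11, 29.8% of 208, against 12.4% of 169 on chromosome 5 and 18.4% of all. After levelling chromosome 10 had 11 such regions (5.29%), under the 8.58% of all, so its excess did not hold on that scale. Chromosome 11 had the largest share above both parents, 8 of 94 (8.51%), against 3.12% of all. The largest levelled share nearest 93-11 was on chromosome 12, with 33 of 127 regions (26.0%), against 15.7% there by total tags.

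Windows of 1 Mb with 10 or more shared regions numbered 38 and held 785 regions (55.7%). The median log2 ratio of LYP9 to 93-11 varied little between windows, from -0.19 to 0.04 with a standard deviation of 0.05. The ratio to PA64s ran from -0.40 to 0.79 with a standard deviation of 0.21. The densest, from 5 to 6 Mb of chromosome 10 with 86 regions, had LYP9 at -0.07 to 93-11 and 0.58 to PA64s, and 26 of its regions (30.2%) were nearest 93-11 against 18.4% of all. After levelling 4 of them (4.65%) were, against 8.58% of all. The widest distance to PA64s was from 14 to 15 Mb of chromosome 9, with 0.79 over 10 regions, where LYP9 was at -0.12 to 93-11. Neighbouring regions resembled each other more in the ratio between parents than in that of LYP9 to 93-11. Over 332 pairs of adjacent regions 1 to 10 kb apart, the correlation of the log2 ratio of 93-11 to PA64s was 0.36. That of LYP9 to 93-11 was -0.01, and that of LYP9 to the mid-parent value was 0.18. Over 285 pairs 10 to 100 kb apart the values were 0.17, 0.11 and 0.18, in the same order. For the 425 pairs at least 100 kb apart the values were -0.05, 0.07 and 0.08. The pairs share libraries and local background, and these correlations are descriptions.

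**Figure D5:**
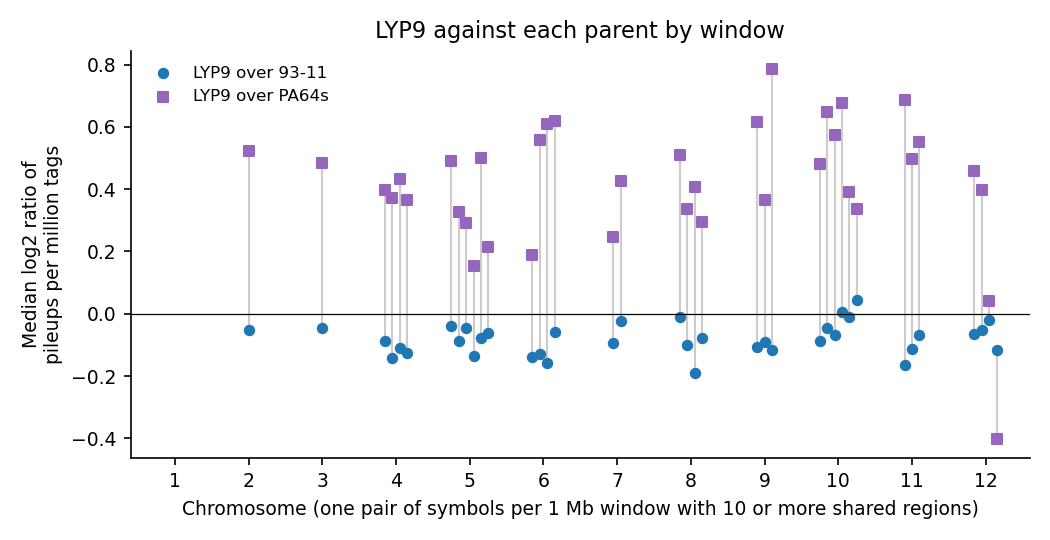
Median log2 ratio of scaled pileups of LYP9 over 93-11 (circles) and over PA64s (squares) in 38 windows of 1 Mb with 10 or more shared regions, arranged by chromosome, with a grey line joining the values of a window. The circles stay between -0.19 and 0.04, while the squares range from -0.40 to 0.79; the lowest square is the window from 20 to 21 Mb of chromosome 12.

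By total tags only 1 window of the 38, from 20 to 21 Mb of chromosome 12, had LYP9 below PA64s at the median region. On the levelled scale it was the lowest of the 38, at -0.81, but other windows were below PA64s too. Among them was that from 13 to 14 Mb of chromosome 12, at -0.36. From 20434420 to 20628010, a stretch of 194 kb, 20 shared regions in a row had a higher scaled pileup in PA64s than in 93-11. The next longest runs of this kind had 5 regions, and 89 of all 111 runs were single regions. Runs were counted by total tags, on which 93-11 was above PA64s at 1245 of the 1410 regions, against 699 when levelled. The shortness of the other runs follows in part from that scale. In the stretch the median pileups were 69.5 tags in 93-11, 69.5 in LYP9 and 110.5 in PA64s, or 6.95, 6.90 and 9.25 after scaling. LYP9 was below the mid-parent value at 20 of 20 regions, with a median log2 ratio of -0.27, below PA64s at 20 of 20 with -0.41, and below 93-11 at 16 of 20 with -0.12. At the 1388 shared regions outside the window LYP9 was below the mid-parent value at 364, below PA64s at 179 and below 93-11 at 911. These counts are also by total tags and depend on that scale. The 105 regions of chromosome 12 outside the window had a median log2 ratio to the mid-parent value of 0.14. The stretch was singled out after its values were seen, and it holds the regions from 20470560 and 20517174 named among those below both parents. It was defined by PA64s being above 93-11. With LYP9 near 93-11, its counts below PA64s and below the mid-parent value follow in part from that choice. Its ratios were close to those of the mitochondrial sequence, where the median log2 ratio of LYP9 was -0.10 to 93-11 and -0.38 to PA64s over 85 regions. Whether the stretch shares sequence with the mitochondrial genome was not tested, since no genome of the build was used here. By total tags 18 of the 20 regions had parents alike, 2 were below both and 0 were nearest 93-11. After levelling, 19 of the 20 were nearest 93-11, which is 19 of the 33 on chromosome 12. Without it the median position at regions with PA64s higher was 0.80 in place of 0.88 on that scale.

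The fold enrichment gives a further readout, since the pileup divided by it is the peak caller's background around a peak in the same library. Without a control this background comes from the tags of that library, over 10000 bp or genome-wide. Tags of the peak and its neighbours can enter it, so it is not independent of the pileups that chose the classes. At the shared regions the median background, scaled to total tags, was 0.287 for 93-11, 0.282 for LYP9 and 0.255 for PA64s, and 387 regions (27.4%) stood at the lowest, genome-wide background in every library. The median log2 ratio of the background of LYP9 to the mean of the parents was -0.02, with the 5th to 95th percentile from -0.19 to 0.25. The background moved with the classes in part. In regions nearest 93-11 the background of 93-11 was above that of PA64s by a median of 0.25 on the log2 scale and that of LYP9 above the mid-parent background by 0.04, against 0.11 and -0.02 over all regions. Regions nearest the mid-parent value were similar in the former, at 0.21, with -0.01 in the latter. In regions nearest PA64s the values were 0.04 and -0.02, and in those above both parents they were also 0.04 and -0.02. None of these values is corrected for the tag extension of 83 bp in 93-11 against 81 bp in the other libraries. The part of the regional background in the classes was not tested beyond the use of fold enrichment in place of pileup, by which 170 regions were nearest 93-11, 141 nearest the mid-parent value and 18 nearest PA64s.

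The comparison leaves out regions where a library had no peak. The lists were of unequal length, with 3970 peaks on the chromosomes in 93-11, 3489 in LYP9 and 2396 in PA64s. Of the 5584 merged regions, LYP9 and 93-11 without PA64s shared 1064 (19.1%), LYP9 and PA64s without 93-11 shared 156 (2.79%), and 124 (2.22%) were in both parents without LYP9. A further 1344 regions (24.1%) were in 93-11 alone and 667 (11.9%) in PA64s alone. The median pileups of the regions shared by LYP9 and 93-11 were 24 tags in 93-11 and 22 in LYP9, those of the regions shared by LYP9 and PA64s 19 and 22, and those of the regions of both parents 21 and 21. The shared regions had higher pileups, 39, 37 and 32. LYP9 alone had 819 regions (14.7%) with a median of 16 tags, of which 27 reached 30 tags. Peaks of 10 or 11 tags were the weakest in the lists, so a missing peak bounds the signal only loosely for most of these regions.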

How the data were processed

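The 3 lists of peaks, 1 per line, were analysed. Sonicated panicle DNA had its 5hmC tagged with an azide-bearing glucose and then biotin, and streptavidin beads collected the tagged fragments, per the labels' protocols. The labels also list an antibody to 5hmC, which their protocol uses for dot blots. BWA 0.5.8 is named in the submitters' processing notes. Per the file headers, peaks were called library by library with MACS 2.0.9 without a control, at a q-value cutoff of 0.01, on uniquely mapped, non-redundant alignments. The pileup is a coverage signal as deposited by the authors, a whole number of tags extended to 83, 81 and 81 bp and not scaled to depth. The fold enrichment is the authors' deposited ratio of the pileup to the background. The −log10 p and −log10 q were deposited as MACS wrote them, and −log10 p served only in an alternative filter.

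From these, peaks were merged, pileups were scaled, and LYP9 was placed between its parents as the results describe. The intervals of medians use binomial order statistics, those of ratios use Poisson error of the pileups, and those of shares are exact binomial. The number of tags limits the precision. All intervals cover only counting error or the sampling of regions, taken as independent. Tags after filtering equal the total tags in each header.

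The rule for naming regions took the 6 highest over both parents and the 6 lowest under both. It also took, for each nearest class, the 3 with the widest gap between parents in each direction, and the 5 with the highest mean level. The class nearest 93-11 with PA64s higher had 2 to name and the class nearest PA64s with PA64s higher had 0. The members, limits and rules were chosen with earlier results of these data known. Routines were tested on simulated data. The software was Python 3.11.15 (scipy 1.17.1, numpy 2.4.6, matplotlib 3.10.9, pandas 2.3.3).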

Additional observations from a re-analysis of the deposited data

Results flagged for a closer look

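The mitochondrial regions lie outside the comparison, which is limited to chromosomes 1 to 12, and there is no control library to set them against. At the 85 mitochondrial regions with a peak in all 3 libraries the median log2 ratio of LYP9 to the mid-parent value was -0.24, and LYP9 was above the mid-parent value at 2 of them. PA64s was above 93-11 at 84 of the 85. The median log2 ratio of LYP9 was -0.10 to 93-11 and -0.38 to PA64s, beside -0.12 and -0.41 in the stretch of chromosome 12 from 20434420 to 20628010. Whether that stretch shares sequence with the mitochondrial genome was not tested, since no genome of the build was used here.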

How the results depend on the processing

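Of 277 recomputed values, 235 stayed within the stated limits, which are 1.5-fold for a count and the interval over regions for a median. Many of the 277 come from leaving out 1 chromosome or from tags after filtering. Those settings could move a count little or not at all, so the tally is not a measure of robustness. With the median region levelled, which sets it close to 0 by construction, the median log2 ratio to the mid-parent value was -0.010, with 41 regions below both parents, 69 nearest the mid-parent value, 121 nearest 93-11 and 12 nearest PA64s. With unscaled pileups the ratio was 0.033, with 42 below both, 128 nearest the mid-parent value, 125 nearest 93-11 and a position of 0.69 where 93-11 was higher. The geometric mean of the parents gave a ratio of 0.16, positions of 0.80 with 93-11 higher and 0.56 with PA64s higher, 15 regions nearest PA64s and 103 whose counting interval excluded equality. Fold enrichment gave a ratio of 0.089, 141 regions nearest the mid-parent value and 170 nearest 93-11. A −log10 p of at least 20 in every list left 664 regions, 5 above both parents, 4 below both, 113 nearest the mid-parent value, 130 nearest 93-11, 4 nearest PA64s, 408 with parents alike and 34 past the counting interval. A mean pileup of at least 30 tags left 918 regions with a ratio of 0.15, 18 above both, 8 below both, 11 nearest PA64s and 487 with parents alike. These filters test fewer regions, which lowers the counts. With no margin, 437 regions were above both, 154 below both, 165 nearest 93-11 and 385 alike; with a margin of 1.5-fold, 9 were above and 3 below. With parents 2-fold apart, 56 were nearest the mid-parent value, 53 nearest 93-11, 4 nearest PA64s and 1239 alike. For the other moved values the cause was not tested. Summed pileups, merging within 500 bp, regions with 1 peak per library overlapping by 50% of both, leaving out pileups near the limit and leaving out each chromosome moved none of the values beyond these limits. Tags after filtering equal total tags and changed nothing. No paired analysis was possible because each line had 1 library. With 1 library per line, none could be left out.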
